A study of Mus musculus with 21 samples.

Results

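The genes described here encode plasma proteins of blood coagulation and of complement that the liver makes. They are 38 of the 21900 protein-coding genes of the mouse annotation, chosen as a list of known genes and not by any measured value. Earlier results of these data were known when the list was chosen. For each gene, the annotated gene body plus 25 kb on each side was taken as its window, and the peaks lying in that window were listed by position in every library. Because some of these genes are neighbours, the 38 windows join into 31 stretches of 2.58 Mb in all. The median window was 70.2 kb, against 67.1 kb over all genes.

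Chromatin immunoprecipitation followed by sequencing (ChIP-seq) was done on hepatocytes isolated by liver perfusion at postnatal day 90, from mice of a mixed C57/B6 and 129 background. KO mice were Arid1a Fl/Fl; Alb-cre, which carry floxed Arid1a alleles and a Cre recombinase driven by the albumin promoter, active in hepatocytes. WT mice were Arid1a Fl/Fl, with the same floxed alleles and no Cre. A further library came from V5-Arid1a mice, in which the ARID1A protein carries a V5 tag. C/EBPα was mapped in 2 KO and 2 WT libraries, dimethylated lysine 4 of histone H3 (H3K4me2) in 3 KO and 3 WT libraries, and V5-ARID1A in 1 library without a replicate. Nothing in the labels says whether libraries of one genotype came from different animals, so the p-values below measure only the spread between these libraries, which may be technical.

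Coagulation is a cascade of proteases that ends when thrombin turns fibrinogen into fibrin; inhibitors hold it in check and plasmin dissolves the clot. Complement is a related cascade in which the lectin, classical and alternative routes converge on C3, after which the terminal components form a pore in the target membrane. Hepatocytes are the main source of most of these proteins. C/EBPα is a leucine-zipper transcription factor that drives hepatocyte gene expression. ARID1A belongs to SWI/SNF, an ATP-dependent complex that moves nucleosomes, and H3K4me2 is found at promoters and enhancers.

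For C/EBPα there were 16178 and 17781 peaks in the KO libraries and 17733 and 23646 in the WT libraries, and V5-ARID1A had 5726. For H3K4me2 there were 24908, 54544 and 175797 peaks in the KO libraries and 34849, 61246 and 49802 in the WT libraries. Read numbers and depth are unknown, and a place without a peak is one where no peak is in the list, not one shown to be unbound. Whether Arid1a was removed cannot be read from peak lists: its start had an H3K4me2 peak in all 6 lists of that mark. The hepatocyte label was checked with marker genes. All 8 hepatocyte markers had H3K4me2 at the start in all 6 lists and 5 of the 8 had C/EBPα there in all 4 lists. Of 5 markers each of endothelial, Kupffer cell and macrophage, stellate and lymphoid cells, 0 had either signal in all lists, and of 5 bile duct markers 1 had H3K4me2 in all 6 lists. Many of these markers had H3K4me2 at the start in at least 1 list. The number without it in any list was 0 endothelial, 3 Kupffer cell and macrophage, 1 stellate, 4 lymphoid and 1 bile duct.

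C/EBPα peaks were dense around the coagulation and complement genes in both genotypes. The windows held 132 and 136 C/EBPα peaks in the KO libraries and 112 and 140 in the WT libraries. Per 10000 peaks of the list, these were 81.6 and 76.5 in KO and 63.2 and 59.2 in WT, so both KO libraries lay above both WT libraries on this scale. Peaks of the 4 lists that shared at least 1 bp were merged into regions, of which 158 lay in the windows. A peak from all 4 lists was present in 97 of them, called kept regions. Kept regions had a density of 37.5 per Mb in the windows and 6.55 per Mb over the windows of all genes. Of the 38 genes, 35 had a kept region, and the median gene had 3. Over all genes, 38.5% had one and the median was 0. Of the 97 kept regions, 28 were within 1 kb of the start of a gene of the group and 65 within 10 kb, and 52 overlapped a gene body.

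**Figure D1:**
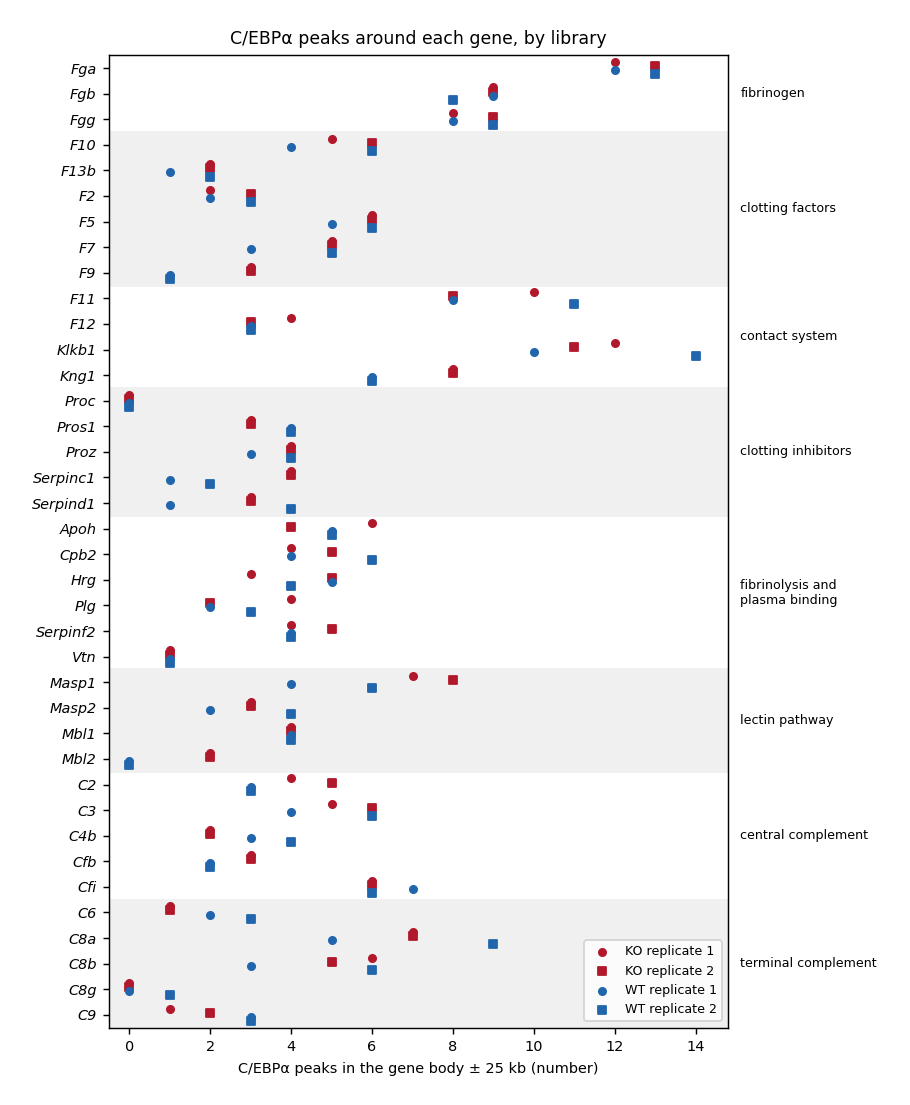
Number of C/EBPα peaks in the window of each gene (horizontal axis, gene body plus 25 kb on each side), with genes grouped by role. Red points are the 2 KO libraries and blue points the 2 WT libraries; Fga, Klkb1, F11 and Fgb have the most peaks, Proc has 0 in every library, and the KO points of Serpinc1, F9, Kng1 and Mbl2 lie to the right of their WT points.

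The most kept C/EBPα regions were found at the fibrinogen genes and at Klkb1 and F11 of the contact system. Fga, which encodes the α chain of fibrinogen, had 12 and 13 peaks in KO and 12 and 13 in WT, and 11 kept regions. Fgb, for the β chain, had 9 and 9 peaks in KO and 9 and 8 in WT, with 8 kept regions, and Fgg, for the γ chain, had 8 and 9 in KO and 8 and 9 in WT, with 7 kept regions. These 3 genes lie side by side on chromosome 3, so most of their regions are counted in more than one window. Klkb1, which encodes plasma prekallikrein, had 12 and 11 peaks in KO and 10 and 14 in WT, with 9 kept regions. Its neighbour F11, for factor XI, had 10 and 8 in KO and 8 and 11 in WT, with 7 kept regions. In each of these genes the KO and WT counts overlapped. The other genes of the contact system, Kng1 for kininogen and F12 for factor XII, had 6 and 3 kept regions. The fewest kept regions were found at Proc (protein C, an anticoagulant protease), C8g (the γ subunit of the complement component C8) and Mbl2 (a mannose-binding lectin), with 0 each. Proc had 0 C/EBPα peaks in its window in each of the 4 lists, and C8g had 0 and 0 in KO and 0 and 1 in WT. A single kept region was found at F9, F13b, Serpinc1, Serpind1, Vtn, C6 and C9. Of these, Vtn, which encodes the plasma and matrix protein vitronectin, had 1 peak in every library, at its start.

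**Figure D2:**
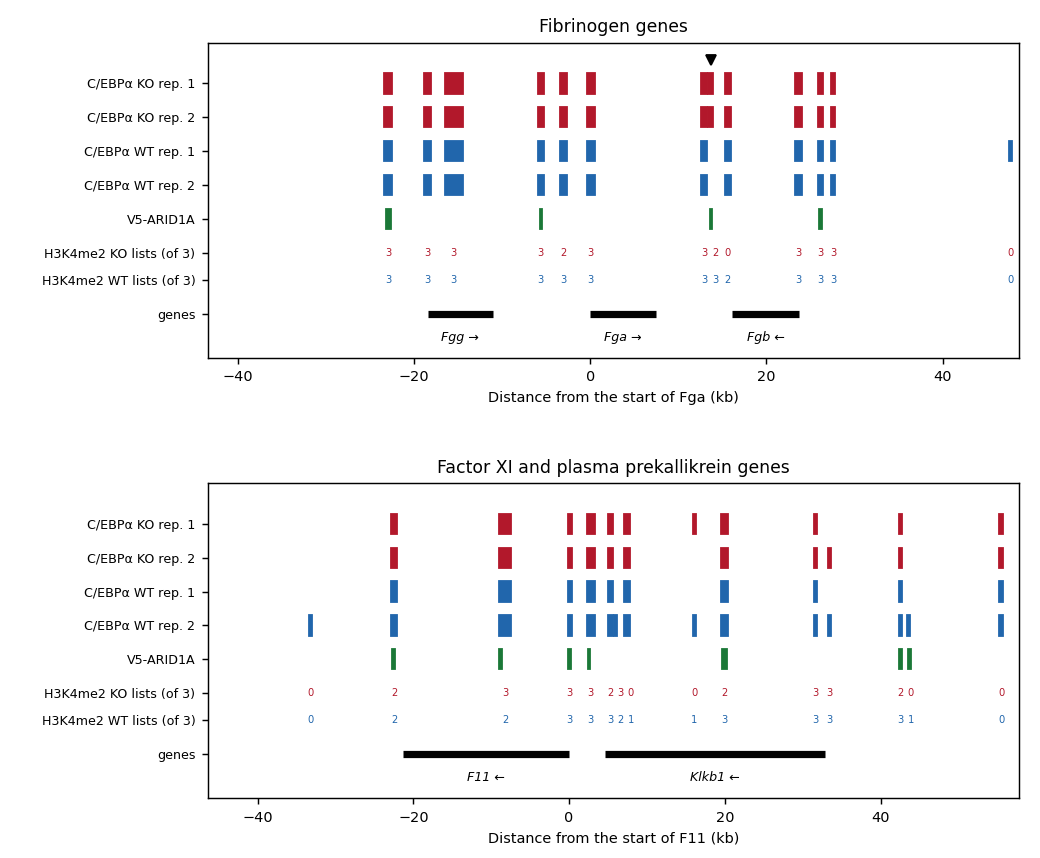
C/EBPα regions around the fibrinogen genes (top) and around F11 and Klkb1 (bottom), by distance in kb from the start of Fga and of F11. A box is drawn over the extent of the merged region in each library with a peak there (red KO, blue WT), V5-ARID1A peaks are green, numbers count the H3K4me2 lists with a peak on the region, arrows after gene names give the strand, and the black triangle marks the 1 region found in both KO lists and in neither WT list.

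The starts of most genes in the group carried C/EBPα in all 4 libraries. A gene counted when a peak lay within 1 kb of its start. The start was taken from RefSeq promoter sequences for 30 genes; for Plg, Proc, Kng1, C2, C4b, Masp1, Cfb and Cfi both annotated ends of the gene were used instead, and these are included when starts are spoken of below. By this measure 26 of the 38 genes had a start peak in all 4 lists, and over all genes 9.25% did. Among those 26, the median width of the widest start peak was 695 and 690.5 bp in KO and 588 and 648 bp in WT. These widths stood at the 89.2 and 90.8 percentile of all peaks in the KO lists and at the 88.8 and 91.3 percentile in the WT lists. Peak width is the only strength that positions give, since the C/EBPα lists have no score.

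The widest start peaks in the coagulation cascade belonged to F10, Plg, Apoh, F5 and F9. F10, for factor X, which turns prothrombin into thrombin, had start peaks of 1100 and 1068 bp in KO and 1135 and 1087 bp in WT. Plg, for plasminogen, had 999 and 954 bp in KO and 1121 and 943 bp in WT. Apoh, for β2-glycoprotein I, which binds phospholipid surfaces, had 987 and 1108 bp in KO and 839 and 854 bp in WT. F9, for factor IX, had 1037 and 788 bp in KO and 782 and 754 bp in WT. F2, for prothrombin, had narrow start peaks of 407 and 392 bp in KO and 376 and 395 bp in WT. The genotypes overlapped at F10, Plg and F2, and both KO peaks were wider than both WT peaks at F9. The Apoh values come from a pair of neighbouring regions and are given by region below. Among the complement genes the widest was the peak shared by C2 and Cfb, of 1061 and 1107 bp in KO and 1025 and 1043 bp in WT. It lies where an annotated end of C2 meets one of Cfb. Both ends were used for these genes, so which of them starts there was not known. The other end of C2 held only a gained region, described below, with peaks of 272 and 262 bp in KO and none in WT.

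Of the 12 genes without a start peak in all 4 lists, 4 had one in some lists. F13b, for the carrier subunit of factor XIII, had start peaks of 459 and 736 bp in KO, none in WT replicate 1 and 601 bp in WT replicate 2. Serpind1, for the thrombin inhibitor heparin cofactor II, had 399 and 331 bp in KO, none in WT replicate 1 and 497 bp in WT replicate 2. Masp2, for the lectin-pathway protease that cleaves C4 and C2, had 349 and 273 bp in KO, none in WT replicate 1 and 326 bp in WT replicate 2. In these 3 genes the missing peak was that of WT replicate 1, and without that library 29 of the 38 genes had a start peak in every list. F7, for the factor that starts coagulation with tissue factor, had a start peak of 478 bp in KO replicate 2 and of 588 bp in WT replicate 2 and none in KO replicate 1 or WT replicate 1. The other 8 genes had no start peak in any list. They were Serpinf2 (the plasmin inhibitor α2-antiplasmin), Proc, Proz (protein Z, a cofactor in the inhibition of factor X), Masp1 (a lectin-pathway protease), Mbl2, and C8a, C8b and C8g, the genes of all 3 subunits of C8. Several of these still had C/EBPα regions farther away: C8a had 4 kept regions, C8b had 3, Serpinf2 4, Masp1 4 and Proz 3.

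**Figure D3:**
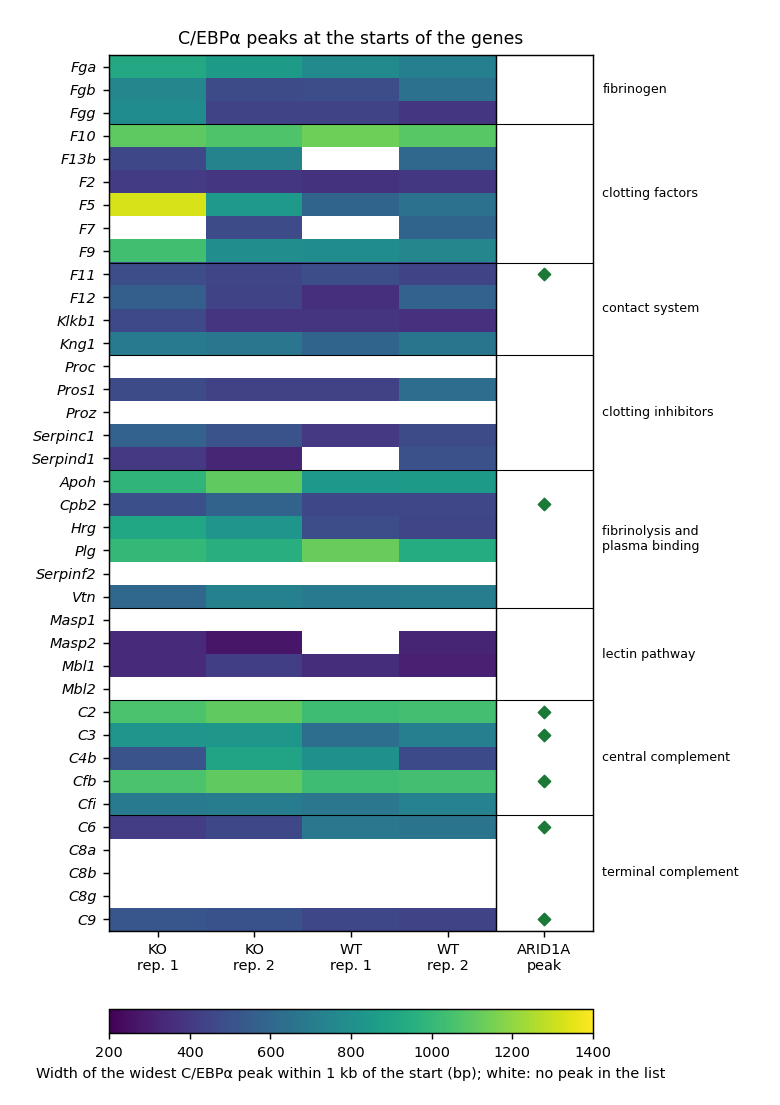
Width in bp of the widest C/EBPα peak within 1 kb of the start of each gene (colour; white where the list has no peak), in the 2 KO and the 2 WT libraries, with a green diamond where the V5-ARID1A list has a peak at the start. White rows are the 8 genes without a start peak in any list, among them C8a, C8b and C8g, and the F13b, Serpind1 and Masp2 rows are white only in WT replicate 1.

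The promoters of the group were searched for the core letters that C/EBP factors are known to bind. The search used TTGCNNAA or TTNNGCAA, which are each other's reverse complement, so that one covers the other's strand; the palindrome TTGCGCAA meets both and was counted once. Of the 30 genes with a promoter sequence of 300 bases (250 before the start and 50 from it on), 10 held a match, which is 33.3%. Of all 17492 protein-coding genes with such a sequence 11.7% did, and of the 1609 of them with a C/EBPα start peak in all 4 lists 22.2% did. The 30 genes include some without such a start peak, such as C8a, C8b and C8g. The 33.3% therefore has another base than the 22.2%. A match describes the letters and is not a mapped site. The 6 promoters shown, with the match in capitals, are those with the widest start peaks, on the mean of the 4 lists, among genes that hold a match and have a peak over the start itself in all 4 lists. They were picked for holding a match. F10 and Apoh, with wider mean start peaks (1097.5 and 947 bp) than any of them, held 0 matches, and so did Vtn (685.5 bp). They are RefSeq sequences of GRCm38.p6, printed 5′ to 3′ along the gene: F9 at chrX:59999214-59999513 (plus strand), Fga at chr3:83025903-83026202 (plus), C3 at chr17:57228087-57228386 (minus), Hrg at chr16:22950822-22951121 (plus), Fgb at chr3:83049814-83050113 (minus) and Cpb2 at chr14:75242037-75242336 (plus).
F9: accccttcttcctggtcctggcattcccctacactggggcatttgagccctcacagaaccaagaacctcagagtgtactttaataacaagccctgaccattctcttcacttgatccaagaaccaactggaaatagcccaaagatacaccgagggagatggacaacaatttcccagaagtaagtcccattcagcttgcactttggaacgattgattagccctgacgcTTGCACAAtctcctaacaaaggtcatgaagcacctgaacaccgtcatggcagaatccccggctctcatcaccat
Fga: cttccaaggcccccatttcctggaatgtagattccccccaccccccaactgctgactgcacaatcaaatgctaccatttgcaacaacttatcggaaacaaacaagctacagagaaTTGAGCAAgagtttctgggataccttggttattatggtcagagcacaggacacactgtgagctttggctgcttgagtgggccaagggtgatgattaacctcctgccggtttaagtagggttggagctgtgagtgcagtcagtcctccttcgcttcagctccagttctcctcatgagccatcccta
C3: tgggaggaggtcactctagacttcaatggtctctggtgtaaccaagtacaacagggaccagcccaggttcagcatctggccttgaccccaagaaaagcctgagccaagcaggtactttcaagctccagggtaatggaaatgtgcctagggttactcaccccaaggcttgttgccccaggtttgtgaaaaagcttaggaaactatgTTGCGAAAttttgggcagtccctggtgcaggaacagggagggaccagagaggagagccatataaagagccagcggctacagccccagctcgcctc
Hrg: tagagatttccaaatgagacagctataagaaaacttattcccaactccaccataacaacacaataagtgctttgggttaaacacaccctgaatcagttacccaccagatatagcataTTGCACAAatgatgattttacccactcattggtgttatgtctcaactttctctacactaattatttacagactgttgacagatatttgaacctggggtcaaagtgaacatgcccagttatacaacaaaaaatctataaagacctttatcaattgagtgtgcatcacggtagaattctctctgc
Fgb: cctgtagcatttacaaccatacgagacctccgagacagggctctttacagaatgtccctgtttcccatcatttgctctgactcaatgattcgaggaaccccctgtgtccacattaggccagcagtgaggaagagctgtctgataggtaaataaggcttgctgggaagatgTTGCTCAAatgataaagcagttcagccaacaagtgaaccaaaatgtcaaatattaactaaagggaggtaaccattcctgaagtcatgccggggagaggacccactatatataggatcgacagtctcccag
Cpb2: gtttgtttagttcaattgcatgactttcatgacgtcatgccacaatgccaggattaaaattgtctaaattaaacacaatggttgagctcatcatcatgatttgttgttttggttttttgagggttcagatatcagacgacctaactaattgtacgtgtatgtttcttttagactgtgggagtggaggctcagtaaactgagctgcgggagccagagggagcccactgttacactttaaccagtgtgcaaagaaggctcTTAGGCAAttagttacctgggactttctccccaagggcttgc
The match began 24 bases before the start in F9, 135 before it in Fga, 45 before it in C3, 133 before it in Hrg and 80 before it in Fgb, and at base 9 of the transcript in Cpb2. The start used for F9, at chrX:59999464, lies inside the annotated gene, which begins at chrX:59999329. The F9 match therefore lies inside the annotated gene body. F9 and Hrg held the same 8 letters. The start peaks over these sequences were 920 and 827 bp in KO and 485 and 452 bp in WT at Hrg, which encodes histidine-rich glycoprotein, and 922 and 852 bp in KO and 776 and 717 bp in WT at Fga. At C3, the central complement component, they were 828 and 836 bp in KO and 634 and 717 bp in WT. At Cpb2, which encodes an inhibitor of fibrinolysis, they were 493 and 582 bp in KO and 460 and 456 bp in WT. In these 4 genes both KO peaks were wider than both WT peaks. KO peaks were wider in general, with list medians of 421 and 396 bp in KO and 391 and 381 bp in WT. Of the 26 genes of the group with a start peak in all 4 lists, 13 had both KO start peaks wider than both WT ones by the widest peak within 1 kb, or 50%, and over all such genes 45% did. Both C2 and Cfb are among the 13, through the same peak. The reverse held for 1 of the 26, C6, and for 5.38% of all such genes. At Fgb they were 757 and 473 bp in KO and 490 and 649 bp in WT, which overlap.

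The first comparison of genotypes asked which C/EBPα regions around these genes were present in one genotype only. A region was called lost when both WT lists and neither KO list had a peak in it, and gained when both KO lists and neither WT list did. Of the 105 regions of the windows found in both WT lists, 5 were lost, or 4.76%, while over the genome 19.3% of such regions were lost. Of the 121 found in both KO lists, 11 were gained, or 9.09%, and over the genome 5.27% were. The remaining 45 of the 158 regions were in some libraries only. At least 1 lost region was found at 5 of the 35 genes with a region of both WT lists, where the share over all such genes was 27.1%. At least 1 gained region was found at 10 of the 36 genes with a region of both KO lists, where it was 13.4%. Neighbours share regions: 1 gained region counts for Fga, Fgb and Fgg and 1 for Cfb and C2. The group also had more kept regions per gene (median 3, against 0 over all genes), so the gene shares do not compare like with like. Leaving out a WT list loosens both rules, and the counts of lost and gained regions moved, as did their balance. Without WT replicate 1 the windows held 16 lost and 13 gained regions. These were 11.9% of those in the WT list and 10.7% of those in both KO lists. The genome shares were 30.1% and 6.71%. Without WT replicate 2 the windows held 6 lost and 22 gained regions, or 5.5% and 18.2%, where the genome shares were 22.1% and 16.6%. In both runs the lost share lay below that of the genome. The gained share lay above it, by little without WT replicate 2. The gained share also depended on which peaks were taken. With the same number of widest peaks from each list, 11.3% were gained in the windows and 11.5% over the genome. With only peaks of the pooled median width or wider, these shares were 6.41% and 12.1%. The lost share lay below that of the genome in both (3.37% against 15.0%, and 0% against 17.7%). A permutation test of 2 against 2 libraries cannot give a p below 0.333, and no test of presence was run.

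Gained regions were found at the fibrinogen genes, F9, Serpinc1, Kng1, Masp1, Mbl2 and the shared Cfb and C2 stretch. The fibrinogen region at chr3:83039524-83040091 lay between Fga and Fgb, 9772 bp from the start of Fgb, with peaks of 556 and 306 bp in KO. It stood close to a kept region at chr3:83038719-83039432, whose peaks were 706 and 582 bp in KO and 560 and 656 bp in WT. At F9 the window had 3 and 3 peaks in KO and 1 and 1 in WT. Both gained regions of F9 lay inside the gene: chrX:60008657-60008943 had peaks of 236 and 287 bp in KO, and chrX:60014440-60015072 had 596 and 589 bp. Serpinc1, which encodes antithrombin, the main inhibitor of thrombin, had the most gained regions, 3, with 4 and 4 peaks in KO and 1 and 2 in WT. One of them, chr1:160978992-160979389, lay 409 bp inside the gene from its start and had peaks of 398 and 381 bp in KO. The other two had peaks of 292 and 304 bp, and of 305 and 501 bp, in KO. The start peak of Serpinc1 itself was 579 and 509 bp in KO and 397 and 477 bp in WT.

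Kng1, for the kininogen that carries bradykinin, had 8 and 8 peaks in KO and 6 and 6 in WT. Its gained region, chr16:23037649-23038422, had wide peaks of 757 and 703 bp in KO and lay nearer to the related gene Kng2, at 8548 bp, than to Kng1. Masp1 had 7 and 8 peaks in KO and 4 and 6 in WT, and its gained region at chr16:23501281-23501769 had peaks of 359 and 453 bp. Mbl2 had 2 and 2 peaks in KO and 0 and 0 in WT. Both Mbl2 peaks were gained regions, one on each side of the gene: chr19:30222588-30223220 with 470 and 633 bp in KO, and chr19:30241574-30241905 with 278 and 332 bp. C2, the classical and lectin route partner of C4, had 4 and 5 peaks in KO and 3 and 3 in WT, and Cfb, its alternative route counterpart, had 3 and 3 in KO and 2 and 2 in WT. They share the gained region chr17:34882065-34882367 at an end of C2, with narrow peaks of 272 and 262 bp. In all, 7 genes had more peaks in both KO libraries than in either WT library (F9, Serpinc1, Kng1, Masp1, Mbl2, C2 and Cfb), and 6.32% of all genes with a peak did. C2 and Cfb enter this count through the same gained region. In the other direction there were 4 genes (Pros1, C4b, C6 and C9), and 14.9% of all genes with a peak.

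Lost regions were found at 1 clotting inhibitor and 4 complement genes, 1 region each. Pros1, for protein S, the cofactor of protein C, had 3 and 3 peaks in KO and 4 and 4 in WT; its lost region at chr16:62922303-62922692, inside the gene, had peaks of 378 and 372 bp in WT. C4b, which encodes C4, had 2 and 2 peaks in KO and 3 and 4 in WT, and the lost region at chr17:34722716-34723072 had 357 and 303 bp in WT. C4b has a close copy, C4a, on the same chromosome, and the sources used here do not say how reads that match both were placed. Cfi, for the protease that inactivates C3b and C4b, had 6 and 6 peaks in KO and 7 and 6 in WT, and lost chr3:129840171-129840595, with 425 and 373 bp in WT. C6, the terminal component that joins the complex after C5, had 1 and 1 peaks in KO and 2 and 3 in WT, and lost chr15:4724812-4725196, with 356 and 320 bp in WT. C9, which forms the wall of the pore, had 1 and 2 peaks in KO and 3 and 3 in WT. Its lost region at chr15:6444444-6444810 lay 536 bp before the start and had 344 and 357 bp in WT. The kept region over the start of C9 had peaks of 522 and 501 bp in KO and 461 and 448 bp in WT. The lost regions had narrow peaks, with a median of 357 bp in the lists that held them, and so had the gained ones, with 370 bp. The kept regions had a median of 479.5 bp. Over the genome these medians were 352, 359 and 433 bp.

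ARID1A peaks were found near most of these genes. The V5-ARID1A list had a peak in the window of 28 of the 38 genes, and of 20.2% of all genes. It had 45 peaks in the windows, of which 30 lay on a C/EBPα region of both WT lists. No share over the genome was taken for that count. At the start, 7 genes had one (F11, Cpb2, C2, C3, Cfb, C6 and C9), and 1.87% of all genes did. C2 and Cfb share theirs, which lies between the 2 genes, and which of them starts there was not known. All 7 also had a C/EBPα peak at the start in all 4 lists. ARID1A lay on 30 of the 97 kept regions, or 30.9% (exact 95% binomial interval 21.9 to 41.1, counting error only), and over the genome on 30.9% of kept regions. It lay on 3 of the 11 gained regions, those of the fibrinogen genes, of F9 at chrX:60008657-60008943 and of Mbl2 at chr19:30241574-30241905, and on 0 of the 5 lost regions. No genome share was taken for gained or lost regions, so these small counts are not read as a difference between them. Klkb1 had the most ARID1A peaks in its window, 6, followed by F11, Masp1 and C8b with 5 each; the windows of Klkb1 and F11 overlap. The 10 genes with 0 ARID1A peaks in the window were F2, F12, Proc, Pros1, Serpinc1, Serpind1, Hrg, Vtn, Masp2 and C4b.

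The second comparison used peak width to ask whether C/EBPα peaks present in all 4 libraries differed by genotype. Widths, summed where a library had several peaks in a region, were put on the log2 scale, centred on the median of each list and tested with limma over all 11664 kept regions of the genome. With Benjamini-Hochberg adjustment, limma called 0 of the 97 regions of the group, and over the genome 0% were called wider and 0% narrower in KO. An unadjusted p under 0.05 was given to 9 of the 97, of which 6 were wider in KO, and to 10.2% over the genome. The median log2 difference, KO minus WT, was 0.07 in the 97 regions and 0.00 over the genome, with 63 of the 97 and 50.6% over the genome above 0. The median of the group was 0.03 without WT replicate 1, and 0.03 with 34 of 64 regions above 0 when only the wider regions were tested.

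Within the group, the largest difference was at C3. A kept region 2541 bp before its start, chr17:57230677-57231682, had peaks of 510 and 442 bp in KO and 983 and 986 bp in WT, a log2 difference of -1.10 (SE 0.14), with an adjusted p of 0.114 in limma. At the start of C3, by contrast, the KO peaks were the wider ones. The start region of Hrg, given above, had a log2 difference of 0.85 (SE 0.14, adjusted p 0.146 in limma). The start region of C6 had peaks of 417 and 459 bp in KO and 680 and 660 bp in WT, a log2 difference of -0.67 (SE 0.14, adjusted p 0.237 in limma). The region over the start of Apoh had 1002 bp (in 2 peaks) and 1108 bp in KO and 581 and 763 bp in WT, and its neighbour 756 bp from the start, chr11:108396053-108397070, had 987 and 845 bp in KO and 839 and 854 bp in WT, which overlap. A region 352 bp inside F5, for the cofactor of factor Xa, had 1326 and 846 bp in KO and 589 and 647 bp in WT. In the C3, Hrg, C6 and F5 regions and in that over the start of Apoh the values of the genotypes did not overlap, and none passed the adjusted threshold. Of the 97 regions, 35 had both KO widths above both WT widths in bp, and 27.7% did over the genome; 6 had both KO widths below, and 16% did over the genome.

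**Figure D4:**
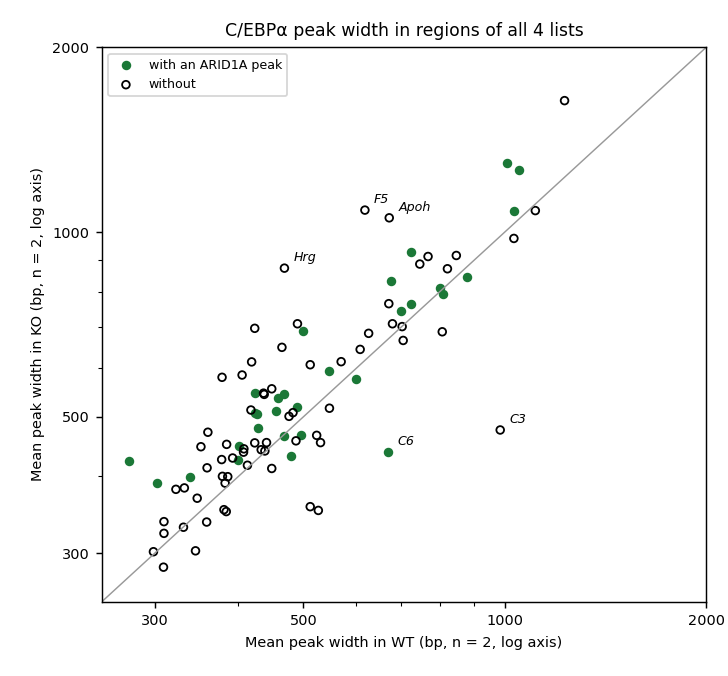
Mean width of the C/EBPα peaks in KO (vertical axis) against WT (horizontal axis), in bp on log axes, for the 97 regions with a peak in all 4 lists; green points carry an ARID1A peak, open points do not, and the line marks equal widths. F5, Apoh and Hrg lie farthest above the line and C3 and C6 farthest below it among the named regions.

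H3K4me2 marked the starts of nearly all the genes in both genotypes. The start had an H3K4me2 peak in all 6 lists in 37 of the 38 genes, and in 52.3% of all genes. The exception was C6, which had no H3K4me2 peak at the start in KO replicate 1. The C6 peak of KO replicate 2 stood at the 5.8 percentile of the −log10 q of its list and that of KO replicate 3 at the 87.2 percentile, while the WT peaks stood at the 74.8, 38 and 81.0 percentile. Such ranks hold only inside a list. The KO replicate 3 list was the longest, with 175797 peaks, so its high rank does not show a stronger mark than in WT. All 8 genes without a C/EBPα start peak had H3K4me2 at the start in every list. Of the 97 kept C/EBPα regions, 52 carried H3K4me2 in all 6 lists and 5 in none, and over the genome 37.4% and 6.59% did. Of the 11 gained regions 5 carried it in all 6 lists, and of the 5 lost regions 0 did; over the genome these shares were 50.1% of gained and 4.14% of lost regions.

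The windows were also divided into 1-kb bins, and a bin counted as marked if H3K4me2 peaks of that library covered 500 bp or more. Of the 265 bins marked in all 3 WT lists, 8 were marked in no KO list, or 3.02%, and over the genome 2.01% were. Of the 161 bins marked in all 3 KO lists, 0 were unmarked in all WT lists, and over the genome 0.175% were. The 8 bins without the mark in KO were spread over 5 genes. C4b had 3 adjoining bins inside the gene (chr17:34738001-34741000), C9 had 2 and C6, Mbl1 and Kng1 had 1 each. The bin of Mbl1 ended 456 bp before its start, the Kng1 bin lay near the start of another gene, Eif4a2, and 1 of the C9 bins took in the lost C/EBPα region described above. Leaving out a library loosens the rule, so the count of 8 bins could only stay or rise. It was 47 when KO replicate 2 was left out, and 12 to 15 when any other library was. No genome share was taken for these runs.

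The length of each window that lay in H3K4me2 peaks gave a value per gene and library. The 5 terminal complement genes had the lowest median difference of the 8 roles, with less length in KO: -0.72 on the log2 scale. C9 had 4793, 5582 and 3765 bp in KO and 8712, 9632 and 8122 bp in WT. C8a had 5546, 6722 and 9129 bp in KO and 11717, 13825 and 10775 bp in WT. C8b had 3158, 5708 and 6764 bp in KO and 7198, 9978 and 8262 bp in WT. All KO values of these 3 genes lay below all WT values; the windows of C8a and C8b overlap. C6 had 571, 2545 and 4941 bp in KO and 4784, 2807 and 6580 bp in WT, and C8g had 4193, 9912 and 4703 bp in KO and 11653, 8765 and 7812 bp in WT, and in both the groups overlapped. Same-numbered H3K4me2 libraries deviated together in pairs 1 and 2 and hardly in pair 3. Within each same-numbered pair C6 was lower in KO, while C8g was lower in KO in pairs 1 and 3 and higher in pair 2. Outside the terminal components, C4b had 2836, 3075 and 4676 bp in KO and 11292, 9518 and 7318 bp in WT. Mbl1, for the other mannose-binding lectin, had 4243, 8974 and 7604 bp in KO and 13525, 11818 and 9151 bp in WT. So 5 of the 38 genes had all KO values below all WT values and 0 the reverse; over the 17575 genes tested the shares were 0.808% and 0.0569%. This count was made after the values were seen.

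These differences did not pass the test. The covered length, as log2(bp + 500) centred on the median of each list, was fitted with limma over the 17575 genes covered in at least 3 lists. Of the 38 genes 0 were called after Benjamini-Hochberg adjustment in limma, and over all genes 0% were called higher and 0% lower in KO. An unadjusted p under 0.05 was given to 3 (C4b, C8b and Mbl1), all lower in KO, and to 3.43% of all genes. The log2 difference, KO minus WT, was -1.28 (SE 0.38) at C4b and -0.71 (SE 0.30) at Mbl1. In the terminal genes it was -0.91 (SE 0.51) at C6, -0.83 (SE 0.40) at C9, -0.72 (SE 0.32) at C8a, -0.68 (SE 0.25) at C8b and -0.61 (SE 0.39) at C8g. Every other role had a median between -0.31 (fibrinogen) and -0.12, and the 38 genes together had a median of -0.20, with 33 below 0 and 5 above. Over all genes the median was 0.00, with 49.4% above 0. With the replicate number as a block, 6 of the 38 genes had an unadjusted p under 0.05 in limma (C4b, Mbl1, C6, C8a, C8b and C9), all lower in KO, and 6.94% of all genes did; 0 of the 38 were called, and the lowest adjusted p among them was 0.697. Leaving out 1 library moved several of these differences by over 1.5 times. C6 had -0.55 without WT replicate 3 and -1.44 without WT replicate 2, and C9 had -0.50 without KO replicate 3 and -1.26 without KO replicate 1. C8g had -0.28 without KO replicate 3 and -0.31 without WT replicate 1, C8a had -0.45 without KO replicate 2 and Mbl1 had -0.46 without WT replicate 1. C4b stayed between -1.57 and -0.96 and C8b between -0.80 and -0.52 with any 1 library left out. The size also depended on the lists: with the same number of peaks taken from each, those of highest −log10 q, the difference was -0.09 at C8b and -0.02 at C8g, while it was -1.68 at C9 and -1.75 at C4b. Without KO replicate 3, whose list was the longest, the median of the 38 genes was -0.02 and 19 of them lay above 0. Over all genes that run gave a median of 0.03, with 54.4% above 0.

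**Figure D5:**
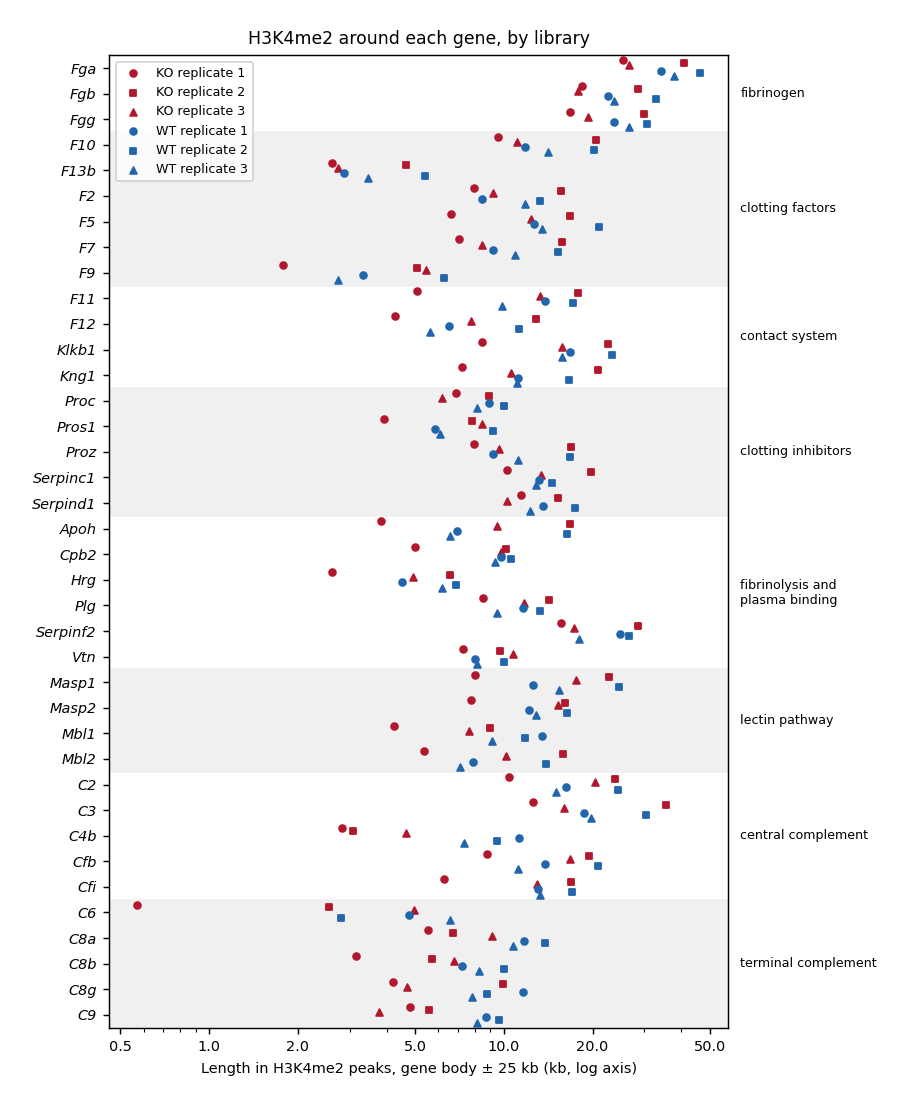
Length of each gene's window (gene body plus 25 kb on each side) that lies in H3K4me2 peaks, in kb on a log axis, for the 3 KO libraries (red) and the 3 WT libraries (blue), genes grouped by role. In C4b, Mbl1, C8a, C8b and C9 all red points lie left of all blue points; in the remaining genes the colours overlap.

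Other genes of the 2 cascades were set beside the group by the same measures. Of 15 further genes known to be made mainly by hepatocytes, 13 had H3K4me2 at the start in all 6 lists. A C/EBPα start peak in all 4 lists was found at 4 of these 15 and in no list at 8. A lost C/EBPα region was found at 2 of them (Vkorc1 and Mcfd2) and a gained one at 4. Of 21 genes known mainly from endothelium, platelets, macrophages or other cells, 4 had H3K4me2 at the start in all 6 lists. A C/EBPα start peak in all 4 lists was found at 1 of these 21 and in no list at 19. A lost region was found at 5 of them and a gained one at 1, Cfp. Over all genes with a region of both WT lists 27.1% had a lost region. Over those with a region of both KO lists 13.4% had a gained one. A kept region was found at only 12 of the 15 and 6 of the 21 genes, so these counts have another base than those shares.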

How the data were processed

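Of 21 samples, 11 have a peak list and 10 are inputs, not used here. Per the submitters' processing notes, the build was mm10 and the tools were Bowtie2 2.2.3, MACS2 2.0.10.20131216, HOMER and Picard, with no roles given. The deposited C/EBPα and V5 lists hold positions only, in peak names numbered with gaps (40.0 to 40.1% of the highest number is present); the sources used here do not say how peaks were chosen. The H3K4me2 lists, as deposited by the authors' peak caller, give each peak a fold ratio and a −log10 p and q, of which only the rank inside a library was used. The C/EBPα and V5 libraries were made with another kit and sequenced on another instrument than the H3K4me2 libraries, per the labels, so targets were compared only by overlap.

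All 38 genes matched RefSeq GRCm38.p6, whose coordinates match mm10 and count from 1. Genes are named with values if they have a lost or gained region, no start peak in all 4 lists, the 5 most or 5 fewest kept regions, an ARID1A start peak, a limma call or a start not marked in all 6 H3K4me2 lists; the genes with the lowest p, the widest start peaks or the lowest covered length were added after their values were seen. The genes and lists were chosen with earlier results of these data known. Work used Python 3.11.15, numpy 2.4.6, pandas 2.3.3, matplotlib 3.10.9, R 4.3.3 and limma 3.58.1 (two-sided, Benjamini-Hochberg over all features, threshold 0.05), and the fits were tested on simulated data. Same-numbered H3K4me2 libraries deviated together in pairs 1 and 2 (correlations 0.541 and 0.524 over 17575 genes) and hardly in pair 3 (0.103). KO and WT libraries of different numbers had correlations from -0.591 to 0.282. The numbers may pair the libraries, though the labels do not say so, and pair 3 is the least clear. The fit with the replicate number as a block made no call either. Alternatives varied window and start size, overlap, peak filters, scaling and the libraries used. Some results on other genes of the pathways are not reported here.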

Additional observations from a re-analysis of the deposited data

How the results depend on the processing

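Depth is unknown and the C/EBPα lists hold positions only, so presence and width are the limits of what can be compared; intervals cover counting error only. Lost regions in the windows numbered 9 with 50 kb on each side, 3 with the same number of widest peaks from each list and 0 with only peaks of the pooled median width or wider, and genes with one numbered 8, 3 and 0. With the same number of widest peaks, 13 regions were gained; the shares were 3.37% lost and 11.3% gained in the windows and 15.0% and 11.5% over the genome. With those wide peaks only, 5 regions were gained, at 5 genes, and 54 were kept; the shares were 0% lost and 6.41% gained in the windows and 17.7% and 12.1% over the genome. Leaving out each C/EBPα library in turn gave 6 to 16 lost regions at 6 to 14 genes and 13 to 22 gained regions at 11 to 20 genes. With wider ARID1A peaks only, 16.5% of kept regions carried one. Leaving out each H3K4me2 library in turn gave 12 to 47 bins lost and 0 to 7 gained. Without KO replicate 1, 7 bins were gained, and without WT replicate 2, 2 were. The number of genes with a start peak in all 4 lists (21 to 30) and with an ARID1A peak in the window (19 to 30) stayed within 1.5 times the value given in each alternative run. Both limma tests called 0 of the genes' regions and 0 of the genes in all alternatives run. The fit with a replicate block called 0 for C/EBPα width and 0 for H3K4me2 covered length; same-numbered C/EBPα libraries did not deviate together (correlation 0.0135), and it changed no other call.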
